A study of Homo sapiens with 12 samples.

Results

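The lysyl oxidase family of secreted copper enzymes was described gene by gene in BxPC-3 and CFPAC-1, established human cell lines from pancreatic ductal adenocarcinoma. Its members LOX, LOXL1, LOXL2, LOXL3 and LOXL4 are 5 of the 60564 genes in the expression table. They were chosen by gene symbol, and the family was selected on its FPKM values in all 12 libraries, which were known beforehand, so its levels and calls are given as a description and support nothing further. FPKM is a fragment count divided by transcript length in kilobases and by the library's mapped total, so levels of different genes can be set side by side. The groups were BxPC-3 induced (no serum for 48 h), BxPC-3 control (normal culture), CFPAC-1 induced (no serum for 48 h) and CFPAC-1 control (normal culture), with 3 libraries each. Starvation served to make the cells grow a primary cilium, which the series text reports on 78% of induced and 5% of control BxPC-3 cells and on 39% of induced and 7% of control CFPAC-1 cells. Effects of starvation and of the cilium cannot be told apart in this design. The labels do not say whether the 3 libraries of a group are separate cultures, and p-values therefore reflect a spread between libraries that may be technical.

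Lysyl oxidases convert lysine and hydroxylysine side chains of collagen and elastin to aldehydes, which then join chains into stable cross-links, with hydrogen peroxide released. All family members share a catalytic domain with a copper site and a quinone cofactor made from a tyrosine and a lysine. LOX and LOXL1 carry a propeptide that proteases of the BMP1 type cut off outside the cell, while LOXL2, LOXL3 and LOXL4 carry scavenger receptor cysteine-rich domains instead. In pancreatic cancer the enzymes are known for stiffening the collagen-rich stroma. Known targets of the hypoxia-inducible factor HIF-1, which binds the core ACGTG or GCGTG, include LOX and LOXL2. No other member is taken here to be outside its control.

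The sequence upstream of LOX and of LOXL4 is shown because the starved minus control difference had opposite signs for these genes in BxPC-3, although neither passed the test with all libraries (limma adjusted p = 0.0673 for LOX and 0.666 for LOXL4). In CFPAC-1, LOXL4 rose. Of the 5 members, 4 (LOX, LOXL1, LOXL3 and LOXL4) were read from a set of RefSeq promoter windows (GRCh38.p14). Each window spans 300 bases, 250 before and 50 after a start. LOXL2 was left out of this step, so nothing is said of its cores. Printed is the part that lies upstream of both the RefSeq and the GENCODE start, on the minus strand, at chr5:122078361-122078509 for LOX and at chr10:98268251-98268444 for LOXL4. Capitals mark the HIF-1 core ACGTG, read on either strand; its other form GCGTG is not in these stretches.
LOX: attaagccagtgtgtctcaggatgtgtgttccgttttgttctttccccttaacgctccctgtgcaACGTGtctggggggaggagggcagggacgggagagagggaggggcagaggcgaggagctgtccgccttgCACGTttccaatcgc
LOXL4: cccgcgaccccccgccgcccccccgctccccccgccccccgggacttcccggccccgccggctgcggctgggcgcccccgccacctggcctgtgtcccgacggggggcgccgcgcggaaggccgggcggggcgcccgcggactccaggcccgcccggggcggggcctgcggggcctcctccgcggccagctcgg
The first of 3 LOX windows held 4 cores, beginning 185, 116, 98 and 42 bases before the RefSeq start, of which the 2 farthest are in the printed stretch of 149 bases. The other LOX windows, at starts inside the gene, overlap each other and held the same 2 cores. The LOXL4 window held 0, as did that of LOXL1 and the first of the 2 LOXL3 windows, and the second LOXL3 window held 1. A core was present in 48.4% of all 35116 windows, and 3 or more cores in 10.1%. The printed LOXL4 stretch is 88.1% G and C, against 59.1% in that of LOX. A match is a run of letters, not a site shown to be bound, and these windows leave out the rest of each gene.

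The depth was estimated from the low values of genes with a single annotated transcript, which piled up at the value of 1 fragment. This peak stood 5.38 to 6.99 times over its surroundings and gave an estimated depth of 16.5 to 26 (in 1000000 fragments) per library. The libraries labelled CFPAC-1 control 2 and 3 stood apart from the rest of that line. Across the 12860 genes tested they correlated at r = 0.990 with each other, at 0.803 with the other 4 CFPAC-1 libraries (0.944 among those 4) and at 0.785 with BxPC-3. The duct keratin KRT19 was at 7.42 and 7.67 FPKM in these libraries, against 532 FPKM in CFPAC-1 control 1 and 254, 627 and 556 FPKM in the induced libraries. EPCAM was also lower there, at 0.963 and 1.04 FPKM against 14.8 FPKM in control 1. The other duct keratins listed were not lost. KRT8 was at 270 and 316 FPKM (274 in control 1) and KRT18 at 318 and 311 FPKM (254 in control 1). KRT7 was low throughout CFPAC-1, at 2.01 and 1.92 FPKM there and 0.340 FPKM in control 1. CFPAC-1 results are therefore given with and without control 2 and 3. Without them 1 CFPAC-1 control remains, whose spread the fit borrows from the remaining groups.

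In starved BxPC-3 cells LOX, the founding member of the family, and LOXL2 stood higher in each induced library than in any control library. LOX (ENSG00000113083, GRCh38 chromosome 5, 122063195 to 122078360, minus strand) was at 3.18, 2.95 and 2.63 FPKM in induced BxPC-3 libraries 1, 2 and 3, against 0.735, 0.857 and 1.09 FPKM in control libraries. The groups did not overlap, and the lowest induced value lay well over the highest control value. Taking the longest annotated transcript, these values stand for about 267, 278 and 265 fragments in induced and 70.2, 77.6 and 117 in control libraries. Mean LOX was 2.92 ± 0.275 FPKM in induced and 0.893 ± 0.178 FPKM in control libraries (SD, n = 3 each), a ratio of 3.27. The difference of mean log2(FPKM + 1) was 1.05 with a standard error of 0.20 (limma, Benjamini-Hochberg adjusted p = 0.0673 over all tested genes). With those control libraries of CFPAC-1 that stood apart left out, limma gave 0.0168. LOX did not pass with BxPC-3 fitted alone (limma adjusted p = 0.0782). With all libraries limma gave 0.478 when rescaled without mitochondrially encoded genes and 0.524 with a pseudocount of 0.1. Leaving out BxPC-3 control 2 gave 0.351. Bulk RNA cannot tell a change per cell from a change in which cells were present.

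LOX was near the limit of detection in most of CFPAC-1. It was at 0.0558, 0.0445 and 0 FPKM in induced CFPAC-1 libraries 1, 2 and 3, and at 0.0279, 0.768 and 0.602 FPKM in control libraries. The induced libraries and control 1 rest on an estimated 5.82, 4.57, 0 and 3.69 fragments. Control 2 and 3, with about 82.9 and 56.6 fragments, carry the whole of the difference between groups. The difference of mean log2(FPKM + 1) was -0.47 (limma adjusted p = 0.121) with all libraries and 0.01 (limma adjusted p = 1.00) without these 2. No difference was detectable at this depth between the induced libraries and control 1.

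LOXL1, the paralogue best known for elastic fibre upkeep (ENSG00000129038, chromosome 15, 73925989 to 73952137, plus strand), was not tested, since it reached 1 FPKM in 2 libraries and the filter asked for 3. CFPAC-1 control 2 and 3 were these libraries, at 1.96 and 1.54 FPKM. LOXL1 was listed at 0 in CFPAC-1 control 1, and at 0, 0.0350 and 0 FPKM in the induced libraries of that line. In BxPC-3 it was at 0.130, 0.0965 and 0.104 FPKM in induced and at 0.0567, 0.0697 and 0.170 FPKM in control libraries, an estimated 2.96 to 9.99 fragments. The BxPC-3 groups overlapped, and LOXL1 was the lowest member of the family in each BxPC-3 library.

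LOXL2, which oxidises collagen IV of basement membranes besides fibrillar collagen and also binds the transcription factor SNAI1 in the nucleus, showed the widest difference in BxPC-3. LOXL2 (ENSG00000134013, chromosome 8, 23297189 to 23425328, minus strand) was at 9.00, 8.61 and 8.22 FPKM in induced BxPC-3 libraries 1, 2 and 3, against 1.46, 1.25 and 1.00 FPKM in control libraries. The groups were far apart and each was tight. Mean LOXL2 was 8.61 ± 0.390 FPKM in induced and 1.24 ± 0.227 FPKM in control libraries (SD, n = 3 each), a ratio of 6.96. The log2 difference of 2.11 (standard error 0.69) had a limma adjusted p of 0.393 with all libraries. Without CFPAC-1 control 2 and 3 the standard error, which all groups share, was 0.27 and the limma adjusted p 0.0168. With BxPC-3 fitted alone the limma adjusted p was 0.00976. With all libraries limma gave 0.581 when rescaled without mitochondrially encoded genes and 0.524 with a pseudocount of 0.1.

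In CFPAC-1 the direction of LOXL2 depended on which control libraries were counted. LOXL2 was at 1.47, 4.46 and 3.89 FPKM in induced CFPAC-1 libraries 1, 2 and 3, and at 0.528, 13.1 and 13.5 FPKM in control libraries. Control 2 and 3 were the highest of the 12 libraries and control 1 the lowest. The log2 difference was -0.75 with all libraries (limma adjusted p = 0.460) and 1.40 without control 2 and 3 (limma adjusted p = 0.0900). Set against control 1 alone, the induced mean was 6.20 times higher, with no replicate of that control.

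LOXL3, an oxidase with a splice form found in the nucleus, was low and differed between the lines more than with starvation. LOXL3 (ENSG00000115318, chromosome 2, 74532414 to 74555690, minus strand) was at 1.17, 0.861 and 1.04 FPKM in induced BxPC-3 libraries, against 1.20, 1.45 and 0.944 FPKM in control libraries. It was at 0.322, 0.128 and 0.350 FPKM in induced CFPAC-1 libraries, against 0.484, 0.314 and 0.252 FPKM in control libraries. These CFPAC-1 values rest on an estimated 8.98 fragments in induced library 2 and on 16.3 to 44 in the others. Induced and control values overlapped in both lines, and each BxPC-3 value lay above each CFPAC-1 value. The log2 difference on starvation was -0.12 in BxPC-3 (limma adjusted p = 0.931) and -0.09 in CFPAC-1 (limma adjusted p = 0.713).

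LOXL4, the member of highest mean level, was the only one that passed the test on starvation with all 12 libraries, and it did so in CFPAC-1. LOXL4 (ENSG00000138131, chromosome 10, 98247690 to 98268250, minus strand) was at 6.51, 17.3 and 16.7 FPKM in induced CFPAC-1 libraries 1, 2 and 3, against 2.21, 0.569 and 0.596 FPKM in control libraries. The groups did not overlap, and within each group library 1 stood on the side of the other group. Mean LOXL4 was 13.5 ± 6.08 FPKM in induced and 1.13 ± 0.942 FPKM in control libraries (SD, n = 3 each), a ratio of 12.0. LOXL4 rose by 2.75 log2 units with a standard error of 0.42 (limma adjusted p = 0.00328). Without control 2 and 3 the difference was 2.07 (standard error 0.55, limma adjusted p = 0.0875) and the ratio to control 1 alone was 6.10. Set against the control of the same number, library 1 differed by 1.22, and libraries 2 and 3 by 3.51 on average.

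In BxPC-3, LOXL4 was split by library number. It was at 7.23, 2.79 and 3.03 FPKM in induced BxPC-3 libraries 1, 2 and 3, against 5.93, 8.66 and 8.37 FPKM in control libraries. Libraries 2 and 3 of the induced group were the lowest of the line, whereas induced library 1 lay among the controls. Over library number 1 alone the log2 difference was 0.25, over numbers 2 and 3 it was -1.28, and with all libraries -0.77 (standard error 0.42, limma adjusted p = 0.666). The same split gave 1.27 and 0.94 for LOX and 2.02 and 2.15 for LOXL2, so the sign of these members was the same in both. Libraries 2 and 3 were closer to each other than to library 1 in each of the 4 groups, and the labels do not say why.

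**Figure D1:**
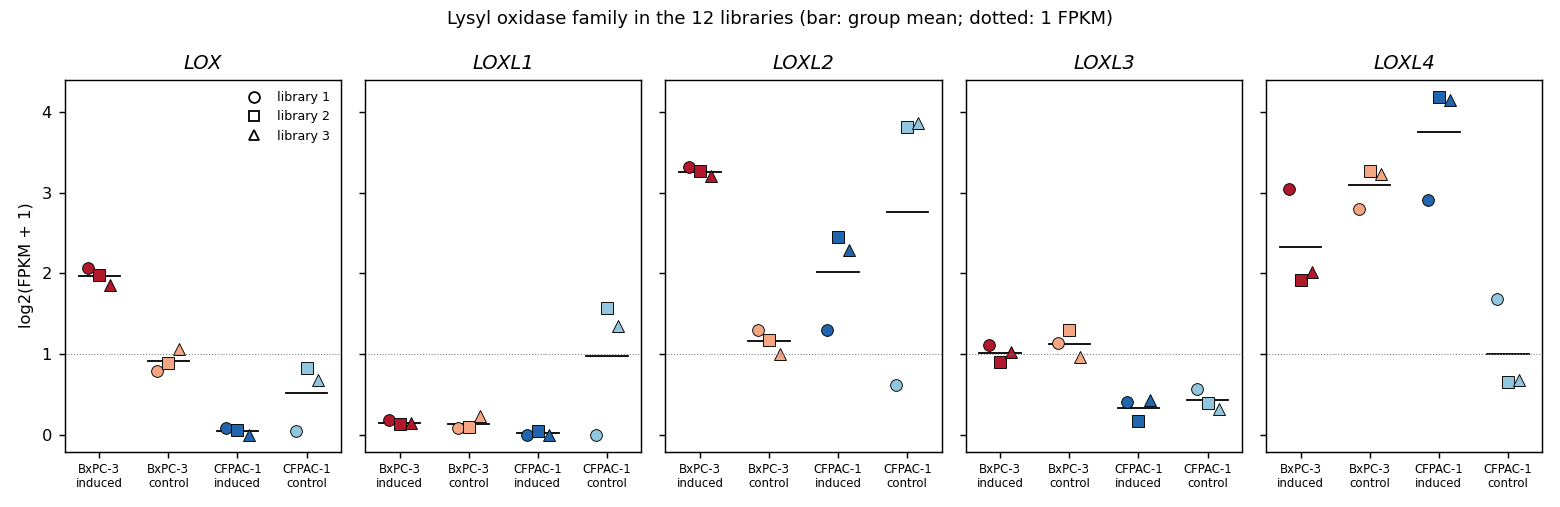
Level of each family member in the 12 libraries, as log2(FPKM + 1), with the marker showing the library number, a bar at the group mean and a dotted line at 1 FPKM. Induced BxPC-3 libraries lie between 2.63 and 3.18 FPKM for LOX and between 8.22 and 9.00 FPKM for LOXL2, above the BxPC-3 controls, while CFPAC-1 control 1 lies far from control 2 and 3 for LOXL2.

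The tested members were also counted. With all libraries 0 of the 4 tested members passed in BxPC-3, where 0.334% of all tested genes did, and 1 of 4 passed in CFPAC-1, where 16.6% did (limma, adjusted p under 0.05). At an unadjusted p under 0.05, 2 of 4 passed in BxPC-3 (LOX and LOXL2), against 8.52% of all tested genes, and 2 of 4 in CFPAC-1 (LOX and LOXL4), against 36% of them. Without CFPAC-1 control 2 and 3, 2 of 4 (LOX and LOXL2) passed in BxPC-3, against 0.404% of all tested genes, and 0 of 4 in CFPAC-1, against 1.73%. At an unadjusted p under 0.05, 2 of 4 (LOXL2 and LOXL4) passed in CFPAC-1 without these libraries, against 18.1% of all tested genes. No overlap of induced with control values was seen for 2 of 4 tested members in BxPC-3 (LOX and LOXL2), against 17.2% of all tested genes, and for 1 of 4 in CFPAC-1 (LOXL4), against 31.6%. The median log2 difference of all tested genes was 0.06 in BxPC-3 and -0.09 in CFPAC-1, and -0.23 in CFPAC-1 after rescaling without mitochondrially encoded genes. That rescaling also set the remaining genes to a sum of 1000000, above the summed FPKM of any library (258299 to 315377). The 1 added before log2 therefore weighed less, and its part in the shift was not separated.

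**Figure D2:**
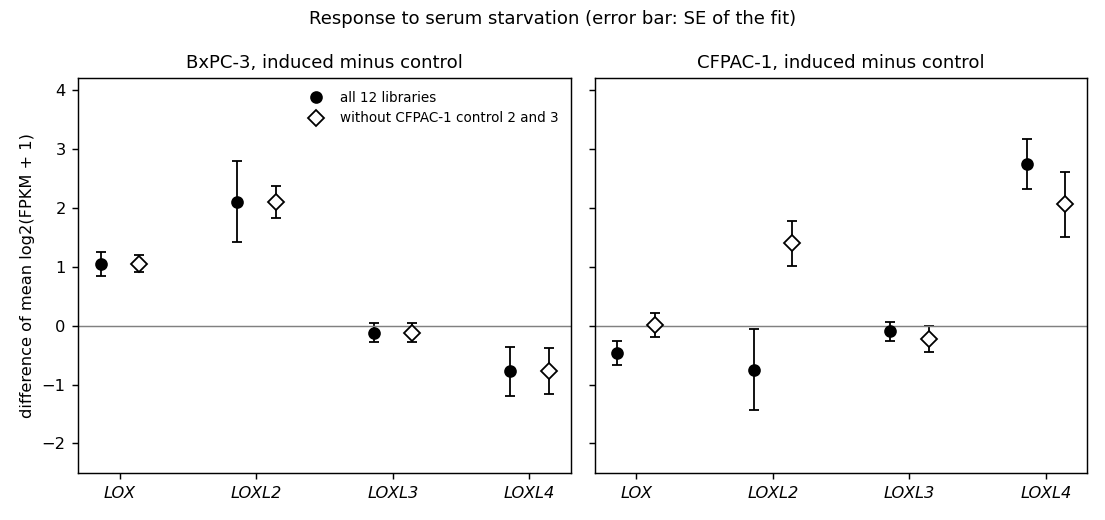
Starvation response (induced minus control, on the log2(FPKM + 1) scale) for the 4 tested members in each line, with the standard error of the fit as the bar. In BxPC-3 leaving out CFPAC-1 control 2 and 3 gave LOXL2 a standard error of 0.27 in place of 0.69 around the difference of 2.11, and in CFPAC-1 LOXL2 was at 1.40 without these libraries and at -0.75 with them.

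The make-up of the family's summed FPKM shifted in BxPC-3. LOXL2 made up 43.5%, 56.3% and 54.7% of the sum in induced BxPC-3 libraries, against 15.5%, 10.2% and 8.67% in control libraries. LOXL4 made up 34.9%, 18.2% and 20.2% of it in induced libraries, against 63.2%, 70.5% and 72.3% in control libraries. LOX took 15.3% to 19.3% in induced and 6.97% to 9.39% in control libraries, so LOXL2 was the leading member in starved cells and LOXL4 in fed ones. The summed level was 20.7, 15.3 and 15.0 FPKM in induced and 9.38, 12.3 and 11.6 FPKM in control libraries, without overlap.

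In CFPAC-1 the leading member was LOXL4 in the induced libraries and control 1. LOXL4 made up 77.9%, 78.8% and 79.8% of the family's FPKM in induced CFPAC-1 libraries and 68.0% in control 1. In control 2 and 3 its share was 3.40% and 3.61%, while LOXL2 made up 78.4% and 81.9% and LOXL1 11.7% and 9.34%. The summed level was 8.35, 22.0 and 21.0 FPKM in induced and 3.25, 16.7 and 16.5 FPKM in control libraries, which overlap.

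**Figure D3:**
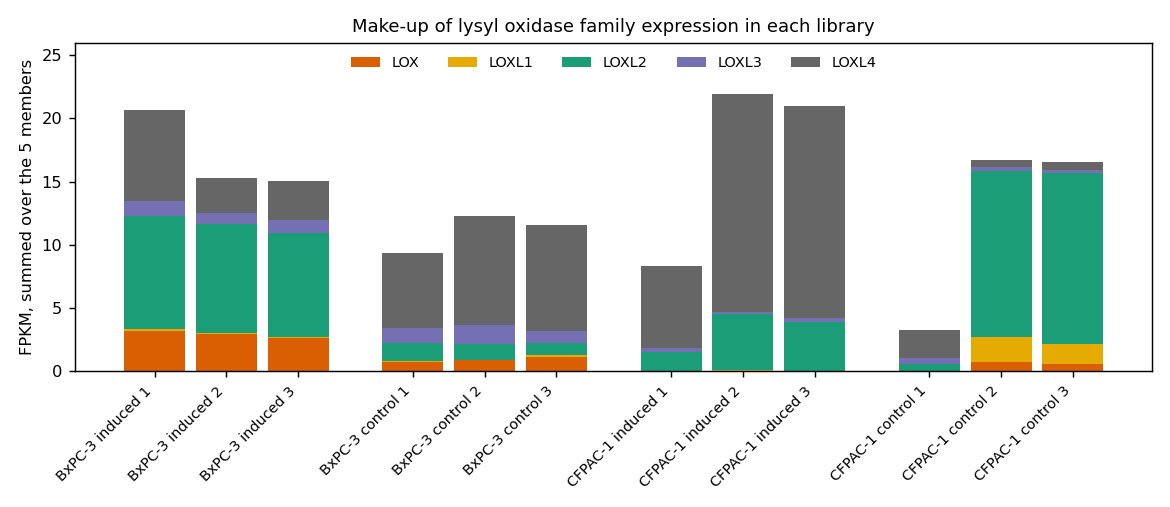
Summed FPKM of the 5 members in each library, stacked by member, from 0. Starved BxPC-3 libraries are mainly LOXL2 (43.5% to 56.3%), control BxPC-3 libraries mainly LOXL4 (63.2% to 72.3%), and CFPAC-1 control 2 and 3 mainly LOXL2.

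The response to starvation was then compared between the lines, as the BxPC-3 difference minus the CFPAC-1 difference. LOX differed by 1.52 log2 units (standard error 0.29, limma adjusted p = 0.0276) and LOXL4 by -3.52 (0.59, limma adjusted p = 0.0200), while LOXL2 (2.86, limma adjusted p = 0.119) and LOXL3 (-0.02, limma adjusted p = 0.956) did not pass. That is 2 of 4 tested members, against 2.45% of all tested genes. Both calls were lost without CFPAC-1 control 2 and 3, at a limma adjusted p of 0.0989 each, with differences of 1.04 for LOX and -2.84 for LOXL4, while 0.428% of all tested genes passed. Both had an unadjusted p under 0.05 there, as did 16.5% of all tested genes. They were also lost on leaving out any 1 of libraries 2 and 3 in each of the 4 groups (limma adjusted p of 0.0745 to 0.0941 for LOX and 0.0552 to 0.0783 for LOXL4). For LOXL4 the difference was -0.98 within library number 1 and -4.79 within numbers 2 and 3. The median of all tested genes was 0.16.

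Between the lines themselves, BxPC-3 had more LOX and LOXL3 than CFPAC-1 when both were starved, and less LOXL4. The log2 differences, BxPC-3 minus CFPAC-1, were 1.92 for LOX (limma adjusted p = 3.49e-05), 0.68 for LOXL3 (0.00723), -1.43 for LOXL4 (0.0208) and 1.25 for LOXL2 (0.182), so 3 of 4 passed, against 36.2% of all tested genes. Without CFPAC-1 control 2 and 3, which enter this contrast only through the shared spread, LOXL2 kept its difference of 1.25 with a standard error of 0.27 and a limma adjusted p of 0.00425. Then 4 of 4 passed, against 44.0% of all tested genes. The LOXL4 difference was 0.13 within library number 1, where BxPC-3 had 7.23 and CFPAC-1 6.51 FPKM, and -2.20 within numbers 2 and 3. In control culture 2 of 4 passed, against 26.2% of all tested genes. These were LOXL3 with 0.70 (limma adjusted p = 0.00772) and LOXL4 with 2.09 (0.00361). LOX, at 0.40 (limma adjusted p = 0.169), and LOXL2, at -1.61 (0.110), did not. Leaving out control 2 and 3 of CFPAC-1, LOX passed there (0.88, limma adjusted p = 0.0102) and LOXL3 and LOXL4 did not (0.0883 and 0.0856), so 1 of 4 passed, against 27.5% of all tested genes.

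The order of mean levels was LOXL2, LOXL4, LOX, LOXL3 and LOXL1 in induced BxPC-3 cells, where LOXL4 (2.79 to 7.23 FPKM) and LOX (2.63 to 3.18 FPKM) overlap. In BxPC-3 control cells it was LOXL4, LOXL2, LOXL3, LOX and LOXL1, and the ranges of LOXL2, LOXL3 and LOX overlap. In induced CFPAC-1 cells it was LOXL4, LOXL2, LOXL3, LOX and LOXL1, with LOX and LOXL1 both at or near 0. No order is given for CFPAC-1 control, whose libraries disagree.

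Genes that work around lysyl oxidation were counted from 10 lists, chosen with earlier results of these data known. For every list count on starvation, the share of all tested genes that passed with all libraries was 0.334% in BxPC-3 and 16.6% in CFPAC-1. The share of positive differences over all tested genes was not counted; their median was 0.06 in BxPC-3 and -0.09 in CFPAC-1. Of the tested proteases and enhancers that process LOX or collagen precursors (3 of 7), 0 passed in either line or fit. BMP1, the procollagen C-proteinase that also cuts pro-LOX, averaged 22.3 ± 4.32 FPKM in induced and 16.4 ± 4.63 FPKM in control BxPC-3 libraries (SD, n = 3 each). PCOLCE2, a procollagen C-proteinase enhancer, averaged 1.08 ± 0.145 FPKM in induced and 1.13 ± 0.277 FPKM in control BxPC-3 libraries. The level of BMP1 was above that of LOX in each BxPC-3 group.

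Substrate genes were sparse in these lines: 4 of 12 fibrillar collagen and elastin genes passed the filter. COL5A1, a chain of collagen V, which starts fibril assembly, averaged 3.60 ± 0.227 FPKM in induced and 1.10 ± 0.0703 FPKM in control BxPC-3 libraries. Its log2 difference of 1.13 did not pass with all libraries (limma adjusted p = 0.667) and did once CFPAC-1 control 2 and 3 were left out (0.0123). COL27A1 averaged 1.71 ± 0.521 FPKM in induced and 2.23 ± 0.152 FPKM in control BxPC-3 libraries (limma adjusted p = 0.867). With all libraries 0 of the 4 passed in BxPC-3, and 1 passed in CFPAC-1, COL5A1 with -2.00 (limma adjusted p = 0.0471). COL5A1 averaged 0.0119 FPKM in induced CFPAC-1 libraries, and its difference there was 0.02 without control 2 and 3.

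CFPAC-1 control 2 and 3, where LOX, LOXL1 and LOXL2 were high, also differed from the other libraries in fibrillar collagen RNA. Of the 12 substrate genes, 5 were above 1 FPKM in both (COL1A1, COL3A1, COL5A1, COL5A2 and COL11A1). COL5A2, chosen after its values were seen, was at 50.7 and 37.2 FPKM in these libraries and between 0.0558 and 0.642 FPKM in the other 10. COL11A1 was at 3.79 and 3.91 FPKM there and at 0.0388 FPKM or less elsewhere, and COL3A1 at 1.98 and 2.06 FPKM. COL27A1 went the other way, at 0.101 and 0.193 FPKM there and 0.875 FPKM or more elsewhere, and COL1A2 was at 0 and 0.00482 FPKM. Of 10 fibroblast and stroma markers, DCN, FAP and POSTN were at 0 in both libraries, while THY1 was at 1.61 and 1.72 FPKM (0.0215 FPKM or less elsewhere) and COL1A1 at 4.27 and 4.28 FPKM (1.45 FPKM or less elsewhere). The summed markers were at 7.96 and 8.15 FPKM there, at 37.8 FPKM in control 1, at 26.7 to 110 FPKM in induced CFPAC-1, at 2.21 to 3.42 FPKM in induced BxPC-3 and at 2.94 to 3.36 FPKM in control BxPC-3 libraries. Most of the CFPAC-1 sum outside control 2 and 3 was LUM; without LUM it was 1.03 to 2.20 FPKM. Summed immune markers were at 37.3 to 47.9 FPKM in induced and 6.64 to 12.9 FPKM in control CFPAC-1 libraries. POSTN was at 0 in all 12 libraries, and the part of other cells in these values was not tested.

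Of the collagen IV genes, 2 of 6 passed the filter and 0 passed the test. COL4A6 averaged 20.6 ± 3.58 FPKM in induced and 17.0 ± 4.69 FPKM in control BxPC-3 libraries, and COL4A5 11.2 ± 3.08 FPKM in induced and 11.1 ± 2.67 FPKM in control libraries. The ratio of LOXL2 between the same groups was 6.96.

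Among 11 tested scaffold genes of elastic fibres and fibrils (of 21), 0 passed in BxPC-3, with a median log2 difference of 0.06. In CFPAC-1, 4 rose and 1 fell with all libraries (median -0.13), and 1 rose without control 2 and 3 (median 0.40). That gene was EFEMP2, which encodes fibulin-4, the protein that brings LOX to elastin. EFEMP2 averaged 8.84 ± 1.44 FPKM in induced and 1.30 ± 0.175 FPKM in control CFPAC-1 libraries (SD, n = 3 each). It rose by 2.09 with all libraries (limma adjusted p = 0.00018) and by 1.97 without control 2 and 3 (0.00861). LOX itself was near 0 in the same induced libraries. THBS1, a matrix glycoprotein, averaged 66.8 ± 28.1 FPKM in induced and 81.0 ± 27.7 FPKM in control BxPC-3 libraries (limma adjusted p = 0.966). LUM, a fibril-binding proteoglycan, averaged 79.1 ± 46.4 FPKM in induced and 12.3 ± 21.2 FPKM in control CFPAC-1 libraries. LUM rose by 4.30 with all libraries (limma adjusted p = 0.0274), and its difference was 0.83 without control 2 and 3 (0.550).

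The lysyl hydroxylases, which prepare the hydroxylysines used in the strongest cross-links, were all tested (3 of 3). In BxPC-3, 0 passed with all libraries and 1 without CFPAC-1 control 2 and 3, with a median log2 difference of 1.08. That gene was PLOD2, the hydroxylase of the collagen telopeptides, named after its values were seen. It averaged 12.8 ± 1.12 FPKM in induced and 5.49 ± 0.156 FPKM in control BxPC-3 libraries, a log2 difference of 1.08 (limma adjusted p = 0.752 with all libraries, 0.0168 without those 2). PLOD1 averaged 68.7 ± 6.67 FPKM in induced and 29.9 ± 14.5 FPKM in control BxPC-3 libraries, and PLOD3 28.1 ± 1.56 FPKM in induced and 19.9 ± 8.18 FPKM in control libraries, neither past the threshold. In CFPAC-1, PLOD1 rose by 1.85 (limma adjusted p = 0.0309) and PLOD2 fell by 2.33 (0.0459) with all libraries, and 0 passed without control 2 and 3. PLOD2, like LOX, was close to 0 in induced CFPAC-1 libraries, with a mean of 0.00625 FPKM.

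The copper handling list showed 0 calls in BxPC-3 among 6 tested genes of 8 and 1 in CFPAC-1. That gene was CCS, named after its values were seen, which delivers copper to superoxide dismutase in the cytosol and not to the secretory pathway. CCS rose by 0.77 (limma adjusted p = 0.0163), and its difference was 0.72 without control 2 and 3 (0.170). SLC31A1, the copper importer, averaged 9.30 ± 1.04 FPKM in induced and 9.58 ± 1.03 FPKM in control BxPC-3 libraries. The metallothionein gene MT2A averaged 263 ± 158 FPKM in induced and 165 ± 99.4 FPKM in control BxPC-3 libraries (limma adjusted p = 0.876). The diamine oxidase gene AOC1, the only tested one of 3 other copper amine oxidases, averaged 1.14 ± 1.01 FPKM in induced and 1.75 ± 0.144 FPKM in control BxPC-3 libraries (limma adjusted p = 0.764).

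The HIF-1 targets had the highest median of the 10 lists in CFPAC-1 and the second highest in BxPC-3, after the lysyl hydroxylases. In BxPC-3, 9 of 11 tested genes (of 12) had a positive difference, with a median of 0.78, and 1 passed with all libraries and 2 without CFPAC-1 control 2 and 3. In CFPAC-1, 11 of 11 had a positive difference, with a median of 1.91, and 10 rose; without control 2 and 3 the median was 1.38 and 3 rose. BNIP3, the listed target that was not tested, is named after its values were seen. It was at 9.90 and 10.3 FPKM in CFPAC-1 control 2 and 3 and at 0.0279 FPKM in control 1. In induced CFPAC-1 libraries BNIP3 was lower than in control 2 and 3, at 0.0218 to 0.0694 FPKM. PGK1, a glycolytic kinase, rose by 1.09 in BxPC-3 (limma adjusted p = 0.0171) and by 1.27 in CFPAC-1 (0.00142). CA9, a carbonic anhydrase, averaged 70.7 ± 11.5 FPKM in induced and 1.03 ± 0.224 FPKM in control BxPC-3 libraries, and 248 ± 53.3 FPKM in induced and 28.1 ± 48.6 FPKM in control CFPAC-1 libraries. NDRG1 rose by 5.28 in CFPAC-1 (limma adjusted p = 0.00259; 2.96 and 0.0173 without control 2 and 3).

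Of the TGF-beta ligands, receptors and targets, 11 of 12 were tested, and 0 passed in BxPC-3 (median -0.20). CCN2, a matricellular growth factor, averaged 12.6 ± 4.16 FPKM in induced and 31.6 ± 22.7 FPKM in control BxPC-3 libraries (limma adjusted p = 0.946). In CFPAC-1, SMAD7, an inhibitor of the pathway named after its values were seen, fell by 0.67 with all libraries (limma adjusted p = 0.0381), and its difference was -0.70 without control 2 and 3 (0.218). Of 7 SNAIL and mesenchymal partner genes 5 were tested, with 0 calls in BxPC-3. SNAI1, the SNAIL repressor, also named after its values were seen, fell by 1.29 in CFPAC-1 with all libraries (limma adjusted p = 0.0146), and its difference was -0.52 without control 2 and 3 (0.289). CDH1, E-cadherin, averaged 46.3 ± 12.8 FPKM in induced BxPC-3 and 0.686 ± 0.240 FPKM in induced CFPAC-1 libraries, and vimentin (VIM) 10.1 ± 1.32 FPKM in induced BxPC-3 and 969 ± 7.13 FPKM in induced CFPAC-1 libraries.

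**Figure D4:**
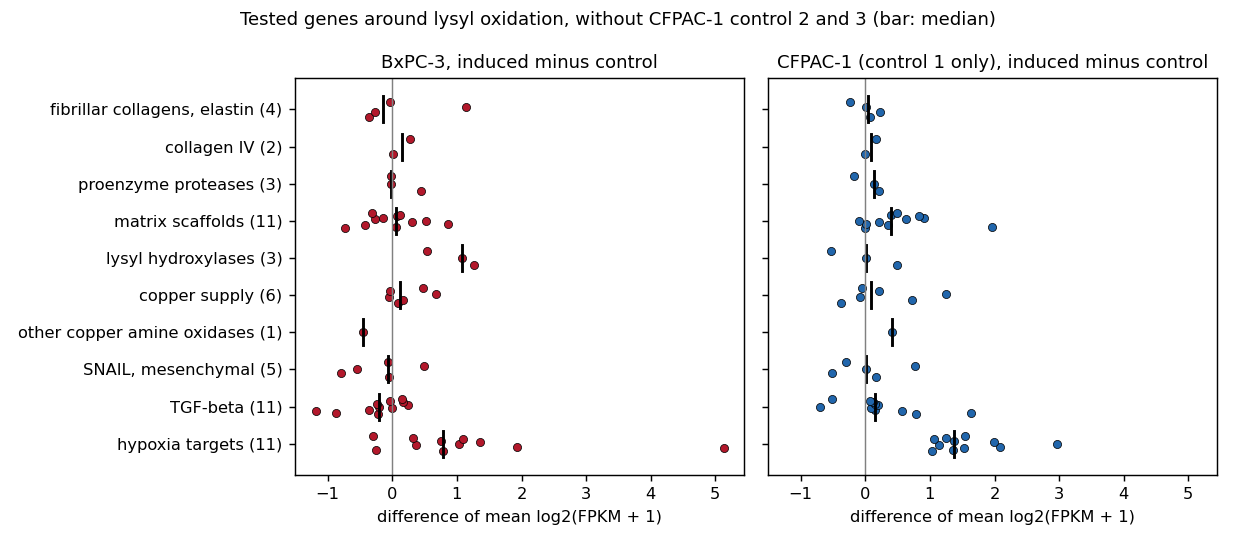
Starvation response (induced minus control, on the log2(FPKM + 1) scale) of each tested gene in the 10 lists, without CFPAC-1 control 2 and 3, with a bar at the list's median and the number of tested genes in brackets. The hypoxia targets have the highest median in CFPAC-1 (1.38), and in BxPC-3 the lysyl hydroxylases (1.08) and hypoxia targets (0.78) lie farthest to the right.

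The genes whose pattern over the 12 libraries was most like that of a member were taken from 5703 or 5702 other tested genes. These were annotated as protein-coding and had a mean of at least 5 FPKM. These Pearson correlations are descriptions, since the libraries share line and library number. For LOX they were SVBP (r = 0.938), HPRT1 (0.937) and GM2A (0.935). GM2A, a lysosomal lipid carrier, was at 80.4, 77.3 and 79.6 FPKM in induced and at 43.6, 23.0 and 22.8 FPKM in control BxPC-3 libraries. For LOXL2 they were MFSD10 (0.911), SNX3 (0.904) and VPS18 (0.877). For LOXL3 they were KRT13 (0.955), CBLC (0.955) and SOX7 (0.952), which were high in BxPC-3 and low in CFPAC-1. For LOXL4 they were ELF3 (0.941), an epithelial transcription factor, CLIC3 (0.928) and JUNB (0.927), an AP-1 subunit. JUNB was at 162, 346 and 318 FPKM in induced CFPAC-1 libraries, against 82.4, 73.3 and 68.5 FPKM in control libraries. Among the members themselves the highest r was 0.67, between LOX and LOXL3, and the lowest -0.75, between LOXL1 and LOXL4.

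Use of strand is not given in the sources used here, so genes that overlap a member may share its reads. LOX overlaps SRFBP1 on the other strand by 12376 bases. SRFBP1 was at 2.32, 3.00 and 2.62 FPKM in induced and at 1.53, 2.56 and 2.95 FPKM in control BxPC-3 libraries, which overlap, unlike those of LOX. LOXL2 overlaps ENTPD4 on the same strand by 39546 bases. ENTPD4 was at 7.95, 4.32 and 4.43 FPKM in induced and at 5.33, 5.41 and 5.46 FPKM in control BxPC-3 libraries, without the difference seen in LOXL2. LOXL3 overlaps DOK1 by 6665 and HTRA2 by 935 bases on the other strand, and both stood above it, DOK1 at 3.59 to 7.27 FPKM in BxPC-3, so LOXL3 values are uncertain. LOXL1-AS1, antisense to LOXL1, was at 0.305 FPKM or less in all libraries, and AL139241.1, antisense to LOXL4, at 0.246 FPKM or less.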

How the data were processed

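RNA-seq libraries of BxPC-3 and CFPAC-1 (3 per group, 12 in all) were made from total RNA taken with TRIzol, per the labels' protocols. FastQC, StringTie and build GRCh38 are named in the submitters' processing notes, without versions; the sources used here give no aligner or annotation. The authors deposited log2 values of FPKM plus 1 per gene and library, per the file headers and the values, and each column was matched to a sample by name. FPKM is relative to a library's total, of which mitochondrially encoded genes took 11.6% to 34.0%. FPKM was recovered by undoing the log2. Genes with at least 1 FPKM in at least 3 libraries (12860) were tested on log2(FPKM + 1) by limma (version 3.58.1, R version 4.3.3), with 4 group means over 12 libraries (8 residual degrees of freedom), two-sided, with Benjamini-Hochberg adjustment over all tested genes and a threshold of 0.05. Such differences understate changes of low genes. The model was tested on simulated data with the same spread for every gene, no library that stood apart and no change in low genes. That run does not show how calls hold in these libraries. The table holds no counts; fragments were estimated from low values of single-transcript genes, with the longest GENCODE release 29 transcript of each member, and cover no interval. Members and lists were chosen with earlier results of these data known. Named list genes are the 2 of highest mean FPKM per list and those called both with and without CFPAC-1 control 2 and 3; exceptions are stated, and 1 gene that this rule names is not reported here. Alternatives were quantile normalization, rescaling without mitochondrially encoded genes to a sum of 1000000, and a pseudocount of 0.1. Others were no filter, a mean of at least 5 FPKM, the compared groups alone, a replicate block, a trend, and leaving out libraries.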

Additional observations from a re-analysis of the deposited data

Results flagged for a closer look

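The response of LOX and of LOXL4 to starvation differed between the lines by a test of the difference itself with all libraries, and neither call held without CFPAC-1 control 2 and 3 (limma adjusted p = 0.0989 each) or without any 1 of libraries 2 and 3 of a group. LOX had a log2 difference of 1.05 in BxPC-3 and -0.47 in CFPAC-1, which differ by 1.52 (standard error 0.29, limma adjusted p = 0.0276). LOXL4 had -0.77 in BxPC-3 and 2.75 in CFPAC-1, which differ by -3.52 (standard error 0.59, limma adjusted p = 0.0200). Without CFPAC-1 control 2 and 3 the responses differed by 1.04 for LOX and -2.84 for LOXL4. Within library number 1 alone the LOXL4 difference was 0.25 in BxPC-3 and 1.22 in CFPAC-1. The part of these libraries in the result was not tested beyond leaving them out.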

How the results depend on the processing

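Of the log2 differences of members, 359 kept their sign and side of the threshold under the other settings, 13 passed it only there, 28 no longer passed and 11 changed sign. Some settings cannot change the difference itself, so its sign was fixed there. These are no filter, a mean of at least 5 FPKM, a trend, the replicate block, the groups alone and leaving out a library outside the contrast. The 359 include LOXL1 with no filter, which had no side of the threshold to keep. Differences within library numbers, added after seeing the data, gave 6 more changes of sign. Without CFPAC-1 control 2 and 3 the sign turned for LOX (0.0074) and LOXL2 (1.40) on starvation in CFPAC-1, for LOXL2 between the lines in control culture (0.55) and for LOXL3 in the difference of responses (0.12). The last also turned when rescaled without mitochondrially encoded genes (0.077) or with a pseudocount of 0.1 (0.12), and ran from -0.11 to 0.057 over single libraries left out. Within library number 1 the values that turned were 0.039 for LOX and 0.69 for LOXL2 in CFPAC-1, 0.69 for LOXL2 between control cultures, 0.14 for LOXL3 in the difference of responses, 0.13 for LOXL4 between induced lines and 0.25 for LOXL4 in BxPC-3. The cause was not tested.

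Members called in BxPC-3 numbered 1 with the compared groups alone, 2 without CFPAC-1 control 2 and 3, and 0 to 2 over single libraries left out. In CFPAC-1 they numbered 0 without control 2 and 3 and 1 to 3 over single libraries left out. For the difference of responses they numbered 1 when rescaled, with a pseudocount of 0.1 or at a mean of at least 5 FPKM (fewer members tested), 0 without control 2 and 3, and 0 to 3 over single libraries left out; groups fitted alone give it no value. At a mean of at least 5 FPKM, 1 was called between control cultures and 1 between induced lines, and 1 between control cultures without control 2 and 3. The upper ends came without CFPAC-1 control 1.

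With a replicate block the members called were 1 in CFPAC-1, 0 in BxPC-3, 2 for the difference of responses, 2 between control cultures and 3 between induced lines, as without it. Genes called over the whole table were 2428 in CFPAC-1 (2138 without the block) and 33 in BxPC-3 (43 without it). With group means taken off, libraries of the same number correlated at 0.151, 0.110 and 0.0535 in BxPC-3 and at -0.0617, -0.0198 and -0.0798 in CFPAC-1. The CFPAC-1 values rest largely on control 2 and 3. In that group, control 1 minus the mean of 2 and 3 had an SD of 1.08 over genes, and 2 minus 3 one of 0.259. Whether the numbers pair the libraries therefore cannot be told from these values. Over the whole table, leaving out single libraries gave 2 to 249 calls in BxPC-3, 506 to 5403 in CFPAC-1 and 0 to 4148 for the difference of responses (315 with all). In BxPC-3 the count was 13 with its groups alone, 25 with a pseudocount of 0.1, 27 when rescaled, 11 at a mean of at least 5 FPKM and 73 with no filter. In CFPAC-1 it was 364, alone, and 222 without control 2 and 3. At a mean of at least 5 FPKM it was 1329 there, 162 for the difference of responses, 1681 between control cultures and 2140 between induced lines, and the difference gave 163 with a pseudocount of 0.1 and 55 without control 2 and 3. Depth limits LOX in induced CFPAC-1 and its control 1, and LOXL1 outside CFPAC-1 control 2 and 3, at an estimated 9.99 fragments or fewer. It also limits LOXL3 in CFPAC-1, at 8.98 fragments in induced library 2 and 16.3 to 44 in the others.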
